A study of Mus musculus with 24 samples.

Results

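The genes described here are 32 mouse genes of cholesterol synthesis and its control, listed by symbol and matched to 32 of the 45706 gene IDs of the count table. They fall into 8 enzymes of the mevalonate and prenyl steps, 11 enzymes from squalene to cholesterol, 8 regulators and other targets of the SREBP transcription factors, and 5 genes of the LXR receptors and their targets. RNA was sequenced in 24 libraries of mouse embryonic fibroblasts from E13.5 embryos, connective tissue cells grown in culture. The cells were wild type (WT) or named for altered Vhl, altered Rassf1a, or both (Vhl/Rassf1a). Every one of the 4 genotypes had 3 libraries labelled GFP, the control, and 3 labelled Cre, given as the knockout. A genotype name here covers its GFP and its Cre libraries alike, and does not mean that the gene was knocked out in the GFP libraries. WT cells, which carry neither alteration, also received GFP or Cre, so that Cre itself has its own control. The labels do not say how Cre or GFP was delivered, which exons were altered, or whether the 3 libraries of a group came from separate cultures or embryos. Where libraries share a culture, a p-value reflects nothing beyond the scatter of these libraries, and that scatter may be technical.

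Cholesterol is built from acetyl-CoA by way of mevalonate, farnesyl diphosphate, squalene and lanosterol, and the mevalonate branch also feeds protein prenylation and ubiquinone. The genes of this route are switched on together by the transcription factor SREBP2, encoded by Srebf2. When sterols are plentiful the Insig proteins hold SREBP and its escort Scap in the endoplasmic reticulum. When oxysterols build up, the LXR nuclear receptors switch on genes that export cholesterol or limit its uptake. Vhl is the substrate subunit of the ubiquitin ligase that targets the hypoxia-inducible factors for degradation, and Rassf1a is a tumour suppressor transcript of the Rassf1 gene.

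Promoter sequence is shown first for 5 of the genes whose levels are described later, since SREBP, CCAAT-binding factors and hypoxia-inducible factors act through short motifs near the start of transcription. RefSeq windows on GRCm38.p6, from 250 bases before to 50 bases after each start, were found for 27 of the 32 genes. The windows below are cut to the bases upstream of the annotated gene and read 5′ to 3′ on the gene's own strand. Capitals mark TCACNCCAC (a sterol response element), CCAAT in either direction (a CCAAT box, ATTGG when reversed) and CACGTG (an E-box), each searched on both strands.
Hmgcs1, chr13:119690101-119690350, plus strand: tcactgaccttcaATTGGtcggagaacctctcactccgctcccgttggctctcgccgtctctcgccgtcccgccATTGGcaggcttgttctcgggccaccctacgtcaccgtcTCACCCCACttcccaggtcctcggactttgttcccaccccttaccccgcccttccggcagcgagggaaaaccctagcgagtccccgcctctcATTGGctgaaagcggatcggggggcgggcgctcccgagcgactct
Insig1, chr5:28071162-28071362, plus strand: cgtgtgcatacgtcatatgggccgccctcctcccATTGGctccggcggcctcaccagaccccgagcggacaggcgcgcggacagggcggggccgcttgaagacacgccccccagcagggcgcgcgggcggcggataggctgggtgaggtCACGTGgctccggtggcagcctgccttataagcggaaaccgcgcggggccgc
Insig2, chr1:121332590-121332839, minus strand: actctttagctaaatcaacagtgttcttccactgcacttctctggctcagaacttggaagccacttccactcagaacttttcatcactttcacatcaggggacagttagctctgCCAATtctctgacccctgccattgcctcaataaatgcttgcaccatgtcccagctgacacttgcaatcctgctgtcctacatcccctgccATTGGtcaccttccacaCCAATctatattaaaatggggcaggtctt
Srebf2, chr15:82147019-82147180, plus strand: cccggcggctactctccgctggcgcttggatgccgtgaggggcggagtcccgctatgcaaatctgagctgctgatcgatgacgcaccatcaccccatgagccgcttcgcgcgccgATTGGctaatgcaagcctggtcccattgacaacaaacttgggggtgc
Mylip, chr13:45389492-45389741, plus strand: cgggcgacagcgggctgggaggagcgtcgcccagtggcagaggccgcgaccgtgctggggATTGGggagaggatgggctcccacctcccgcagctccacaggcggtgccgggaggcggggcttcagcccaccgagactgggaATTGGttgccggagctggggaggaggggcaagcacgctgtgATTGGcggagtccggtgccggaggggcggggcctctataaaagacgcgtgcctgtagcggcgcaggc

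TCACNCCAC was found in 1 of the 27 genes, Hmgcs1, as the run TCACCCCAC that starts 137 bases before the start of transcription. This is 3.7% of the genes, against 1.44% of all genes with a window. CCAAT was present in 21 of the 27 genes (77.8%), against 41.1% of all genes. CACGTG was found in 6 genes (22.2%, against 8.09% of all genes): Abca1, Dhcr7, Hsd17b7, Insig1, Sc5d and Scap. The hypoxia response core ACGTG, which every CACGTG contains, was found in 7 genes (25.9%, against 21.8%). The direct repeat bound by LXR, in its exact form, was in none of the 27 genes and in 0.0148% of all genes. These matches describe letters in a window of fixed length and were not tested as sites. Every motif was searched in the exact letters given, so variant forms, also of the sterol response element, were not counted. Insig2, which rose in the results below, and Mylip, which fell, each held 3 CCAAT boxes. The window of Lpin1, which also rose, held none.

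Library totals ran from 29.9 to 55.8 M counts, and all 32 genes passed the filter on low counts, among 16573 genes tested. Vhl itself was at 26.7 ± 0.972 CPM (SD, n = 3), where CPM are counts scaled to the size of the library, in Vhl GFP and 2.57 ± 0.257 in Vhl Cre. It was at 22.0 ± 1.59 in Vhl/Rassf1a GFP and 2.10 ± 0.523 in Vhl/Rassf1a Cre. Per kilobase of exon, mean levels of the 32 genes in WT GFP ran from 0.254 CPM for Abcg1 to 51.8 for Cyp51 and 57.7 for Hmgcs1. Counts over the whole Rassf1 gene do not check the Rassf1a label. All 10 fibroblast markers were above 1 CPM in every group, with a sum of 39160 to 59560 CPM per library, and all 6 liver cell markers were below 1 CPM. The series' design note names the kidney proximal tubule in place of fibroblasts. Of 6 markers of that tubule, 3 were below 1 CPM in every group, Slc34a1 among them. The 6 together still summed to 187.1 to 367.3 CPM per library, so the others were expressed. Of 6 neural cell markers, 4 were below 1 CPM in every group, with a sum of 284.8 to 486.9 CPM. One library of Rassf1a GFP (replicate 1) and one of Vhl/Rassf1a GFP (replicate 2) stood apart: their deviations from the group mean followed the GC content of genes with r = 0.825 and 0.821 across genes, which are not independent replicates.

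Enzymes of cholesterol synthesis were lower in the Cre libraries of both genotypes with altered Vhl. In Vhl cells 11 of the 19 enzymes fell and none rose, and in Vhl/Rassf1a cells 8 fell and none rose. Among all genes tested, 36.1% changed in Vhl cells (18.7% fell and 17.4% rose) and 29.7% in Vhl/Rassf1a cells (14.8% fell and 14.9% rose). Neither WT nor Rassf1a cells had an enzyme that changed with Cre in the main fit. A change is called where the adjusted p of the edgeR quasi-likelihood test over all genes was under 0.05, and fold changes are log2 values of Cre against GFP with their standard error (SE). With GC-corrected offsets, the enzyme Sc5d was called higher in Rassf1a cells (0.16, adjusted p = 0.0448). With that correction and both libraries that stand apart left out, Dhcr7 was called higher in WT cells (0.16, adjusted p = 0.0309). In RNA from bulk cultures, fewer cells of a kind and less RNA per cell cannot be told apart.

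The 19 enzymes were also summed up per library as the geometric mean of their CPM in percent of the WT GFP mean. The WT libraries lay between 97.8% and 101.3%, and the Rassf1a libraries between 96.3% and 102.4%. Values were 76.0% to 78.5% for the GFP and 63.4% to 65.0% for the Cre libraries of Vhl cells. For Vhl/Rassf1a cells they were 81.6% to 88.7% with GFP and 74.9% to 76.0% with Cre. The lowest of the Vhl/Rassf1a GFP values, 81.6%, was the library that stands apart. Thus Cre and GFP did not overlap in Vhl or in Vhl/Rassf1a cells, and the GFP control libraries of these cells already lay below every WT library. Of the 19 enzymes, 18 had all 3 Vhl Cre libraries below all 3 WT GFP libraries, as did 18 in Vhl/Rassf1a Cre and 1 in WT Cre. Among all genes tested, 28.4%, 25.5% and 6.29% did so. The GFP libraries of Vhl cells lay wholly below WT GFP for 15 enzymes and those of Vhl/Rassf1a cells for 10, beside 23.7% and 9.94% of all genes. Rassf1a GFP and Rassf1a Cre did so for 4 enzymes each, beside 12.2% and 17.1% of all genes.

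**Figure D1:**
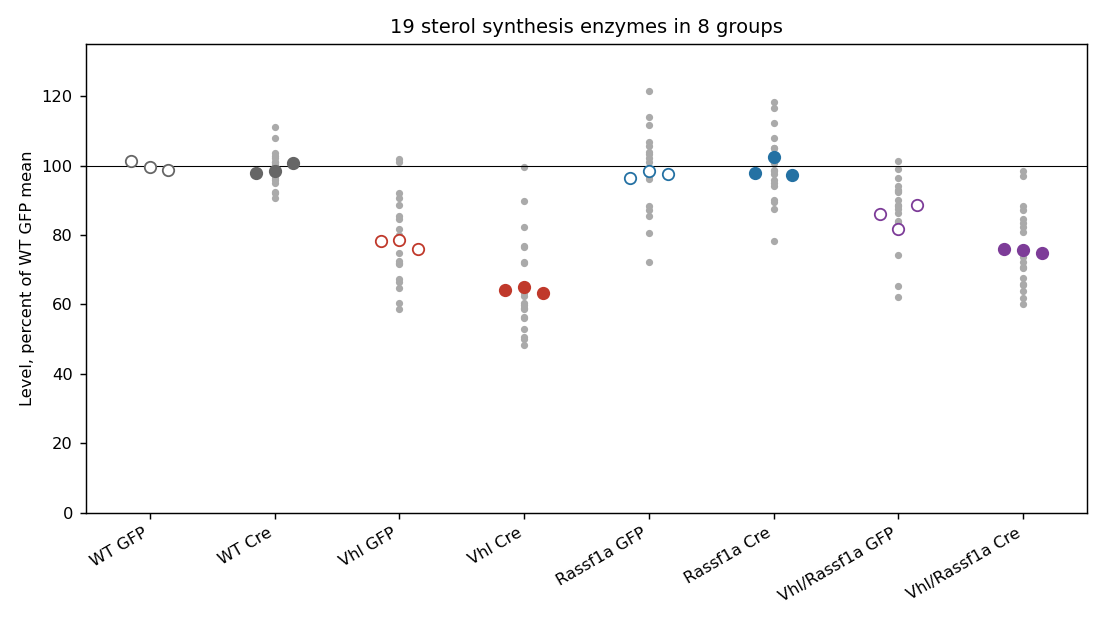
Level of the cholesterol synthesis enzymes in every library, as the geometric mean of CPM in percent of the WT GFP mean, by genotype, with open symbols for GFP and filled symbols for Cre. WT and Rassf1a libraries sit near 100%, Vhl Cre libraries at 63.4% to 65.0% and Vhl/Rassf1a Cre libraries at 74.9% to 76.0%.

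In the mevalonate and prenyl steps, 4 of 8 enzymes fell in Vhl cells and 4 of 8 in Vhl/Rassf1a cells, beside 18.7% and 14.8% of all genes. The medians of these enzymes were −0.34 and −0.26, against −0.01 and 3e-04 over all genes. Acat2, the cytosolic thiolase that makes acetoacetyl-CoA (chr17:12942890-12960747, GRCm38, minus strand), had the largest change of these in Vhl cells. It was at 44.0, 42.9 and 43.6 CPM in Vhl GFP and at 29.6, 32.4 and 29.4 CPM in Vhl Cre. Its Vhl/Rassf1a libraries were at 49.9, 52.2 and 50.6 CPM in GFP and at 41.9, 41.5 and 39.6 CPM in Cre. The 2 ranges were apart in both genotypes, and Vhl Cre was the lowest of the 8 groups, with WT libraries at 57.7 to 62.7 CPM. The log2 fold change was −0.52 (SE 0.05, adjusted p = 1.3e-08) in Vhl and −0.31 (SE 0.05, adjusted p = 2.26e-05) in Vhl/Rassf1a cells.

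Hmgcs1, the HMG-CoA synthase whose promoter holds the sterol element shown above, fell by 0.36 in Vhl cells (SE 0.07, adjusted p = 0.000387). Its Vhl libraries were at 245.8, 246.4 and 241.6 CPM in GFP and at 194.9, 191.3 and 186.2 CPM in Cre. The change in Vhl/Rassf1a cells was −0.09 (SE 0.07, adjusted p = 0.386), with GFP at 257.5, 209.5 and 272 CPM and Cre at 231.8, 229.2 and 233.1 CPM. The middle GFP value is the library that stands apart, and without it Hmgcs1 fell by 0.20 (adjusted p = 0.0193). Among the kinases and the decarboxylase of the pathway, Mvk fell by 0.41 and Mvd by 0.42 in Vhl cells (adjusted p = 0.00451 and 0.000843), and by 0.29 and 0.31 in Vhl/Rassf1a cells (adjusted p = 0.0431 and 0.0112). Those 2 calls in Vhl/Rassf1a cells rested in part on the same library: without it the change was −0.15 for Mvk (adjusted p = 0.275) and −0.19 for Mvd (adjusted p = 0.0811). Mvk also lost its call without any 1 of the 3 Vhl/Rassf1a Cre libraries (adjusted p = 0.0518, 0.108 and 0.111).

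Fdps, the farnesyl diphosphate synthase, had few counts. It was at 5.92, 6.23 and 4.22 CPM in Vhl GFP and 4.82, 4.19 and 5.73 CPM in Vhl Cre, which overlap. The Vhl/Rassf1a libraries were at 7.63, 7.90 and 6.96 CPM in GFP and 6.08, 6.03 and 5.47 CPM in Cre, without overlap. The fall there was 0.36 (SE 0.13, adjusted p = 0.0482). That call was lost without Vhl/Rassf1a GFP replicate 1 (adjusted p = 0.102) or 2 (0.114), and without Vhl/Rassf1a Cre replicate 1 (0.0762), 2 (0.079) or 3 (0.159). Fdps also lies within the annotated span of Gm43738 on the same strand (7512 bases shared), so reads could be split between them. The other mevalonate and prenyl enzymes were not called in either genotype: Idi1, the isopentenyl diphosphate isomerase, was at −0.32 (SE 0.17, adjusted p = 0.141) and 0.05 (SE 0.16), Pmvk at −0.14 and −0.23, and Ggps1, which starts the geranylgeranyl branch, at −0.03 and 0.07. Idi1 was called lower in Vhl cells under 5 other settings, with adjusted p from 0.00027 to 0.0166, among them leaving out both libraries that stand apart (−0.32, adjusted p = 0.000659). In Vhl/Rassf1a cells it was at 26.84, 14.75 and 27.77 CPM in GFP and 25.54, 23.12 and 22.62 CPM in Cre, and its direction turned to −0.20 (adjusted p = 0.236) without GFP replicate 2, the low library, and to −0.01 (adjusted p = 0.983) without Cre replicate 1. Pmvk was called lower in Vhl/Rassf1a cells under 4 other settings, with adjusted p from 0.0232 to 0.0364, one of them leaving out GFP replicate 1 (−0.29, adjusted p = 0.0356). Acat2 and Idi1 have close copies in the mouse genome (Acat3 and Idi2), and how reads shared with them were counted is not given in the sources used here.

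From squalene to cholesterol, 7 of 11 enzymes fell in Vhl cells and 4 of 11 in Vhl/Rassf1a cells, beside 18.7% and 14.8% of all genes. The medians of these enzymes were −0.23 and −0.19. Dhcr7, a reductase of the last steps (chr7:143823145-143848410, GRCm38, plus strand), was among those that fell in both. It was at 30.8, 28.7 and 29.2 CPM in Vhl GFP and at 20.4, 21.7 and 19.7 CPM in Vhl Cre. Its Vhl/Rassf1a libraries were at 31.4, 33.0 and 32.9 CPM in GFP and at 21.3, 21.5 and 21.9 CPM in Cre. Both Cre groups thus lay between 19.7 and 21.9 CPM, below every other library, while the WT libraries ran from 33.7 to 40.1 CPM. It fell by 0.52 in Vhl cells (SE 0.06, adjusted p = 9.96e-08) and by 0.59 in Vhl/Rassf1a cells (SE 0.06, adjusted p = 2.36e-08).

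Tm7sf2, a sterol reductase acting after lanosterol (chr19:6062821-6068373, GRCm38, minus strand), was called in Vhl cells. It was at 12.3, 11.2 and 12.1 CPM in Vhl GFP and at 7.66, 8.44 and 7.42 CPM in Vhl Cre, a fall of 0.60 (SE 0.08, adjusted p = 4.27e-06). In Vhl/Rassf1a cells it was at 12.3, 13.4 and 13.0 CPM in GFP and 10.4, 11.8 and 11.3 CPM in Cre, a difference of −0.21 that was not called (SE 0.08, adjusted p = 0.0504). It lay at the threshold: DESeq2 called it (adjusted p = 0.0454), as did edgeR with GC-corrected offsets (0.0486) and without Vhl/Rassf1a GFP replicate 1 (0.0493) or Cre replicate 2 (0.0434). The ranges were apart in both genotypes. Tm7sf2 shares 532 bases with Vps51 on the same strand.

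Cyp51, the lanosterol demethylase, fell by 0.36 in Vhl cells and by 0.30 in Vhl/Rassf1a cells (adjusted p = 6.87e-05 and 0.00059). Fdft1, squalene synthase and the first enzyme committed to sterols, fell by 0.24 and 0.13 (adjusted p = 0.000163 and 0.0253). Ebp, a sterol isomerase, fell by 0.40 and 0.26 (adjusted p = 0.000163 and 0.00896). The Vhl/Rassf1a calls of Fdft1 and Ebp depended on single libraries. Fdft1 was not called without Vhl/Rassf1a GFP replicate 2 (adjusted p = 0.0593) or 3 (0.0541), or without Vhl/Rassf1a Cre replicate 1 (0.0772) or 2 (0.06), and Ebp not without Vhl/Rassf1a Cre replicate 1 (0.0514).

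Nsdhl, which takes part in removing methyl groups from lanosterol, fell by 0.22 in Vhl cells (adjusted p = 0.000905) and was at −0.12 in Vhl/Rassf1a cells (adjusted p = 0.0531). Lss, lanosterol synthase, fell by 0.23 in Vhl cells (adjusted p = 0.0446) and was at −0.22 in Vhl/Rassf1a cells (adjusted p = 0.0672). The Vhl call of Lss was lost on leaving out any 1 of the 6 libraries: adjusted p was 0.125, 0.0771 and 0.0656 without GFP replicates 1, 2 and 3, and 0.147, 0.0742 and 0.058 without Cre replicates 1, 2 and 3. Lss also overlaps the antisense gene 4930483K19Rik over 11268 bases. The remaining enzymes were not called in either genotype. Sqle, squalene epoxidase, stayed within −0.02 and −0.03 (SE 0.04 in both), with intervals from −0.11 to 0.08 and from −0.12 to 0.06. Msmo1 was at −0.19 in both, Hsd17b7 at −0.06 and 0.01, and Sc5d at 0.01 and 0.01. Without the library that stands apart, Msmo1 fell by 0.32 in Vhl/Rassf1a cells (adjusted p = 0.000774) and Nsdhl by 0.17 (adjusted p = 0.00836). In Vhl cells Msmo1 was called lower under 5 other settings, with adjusted p from 0.000164 to 0.0125, and Lss was called lower in Vhl/Rassf1a cells with no filter (0.00689) or with the groups compared fitted alone (0.0283).

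**Figure D2:**
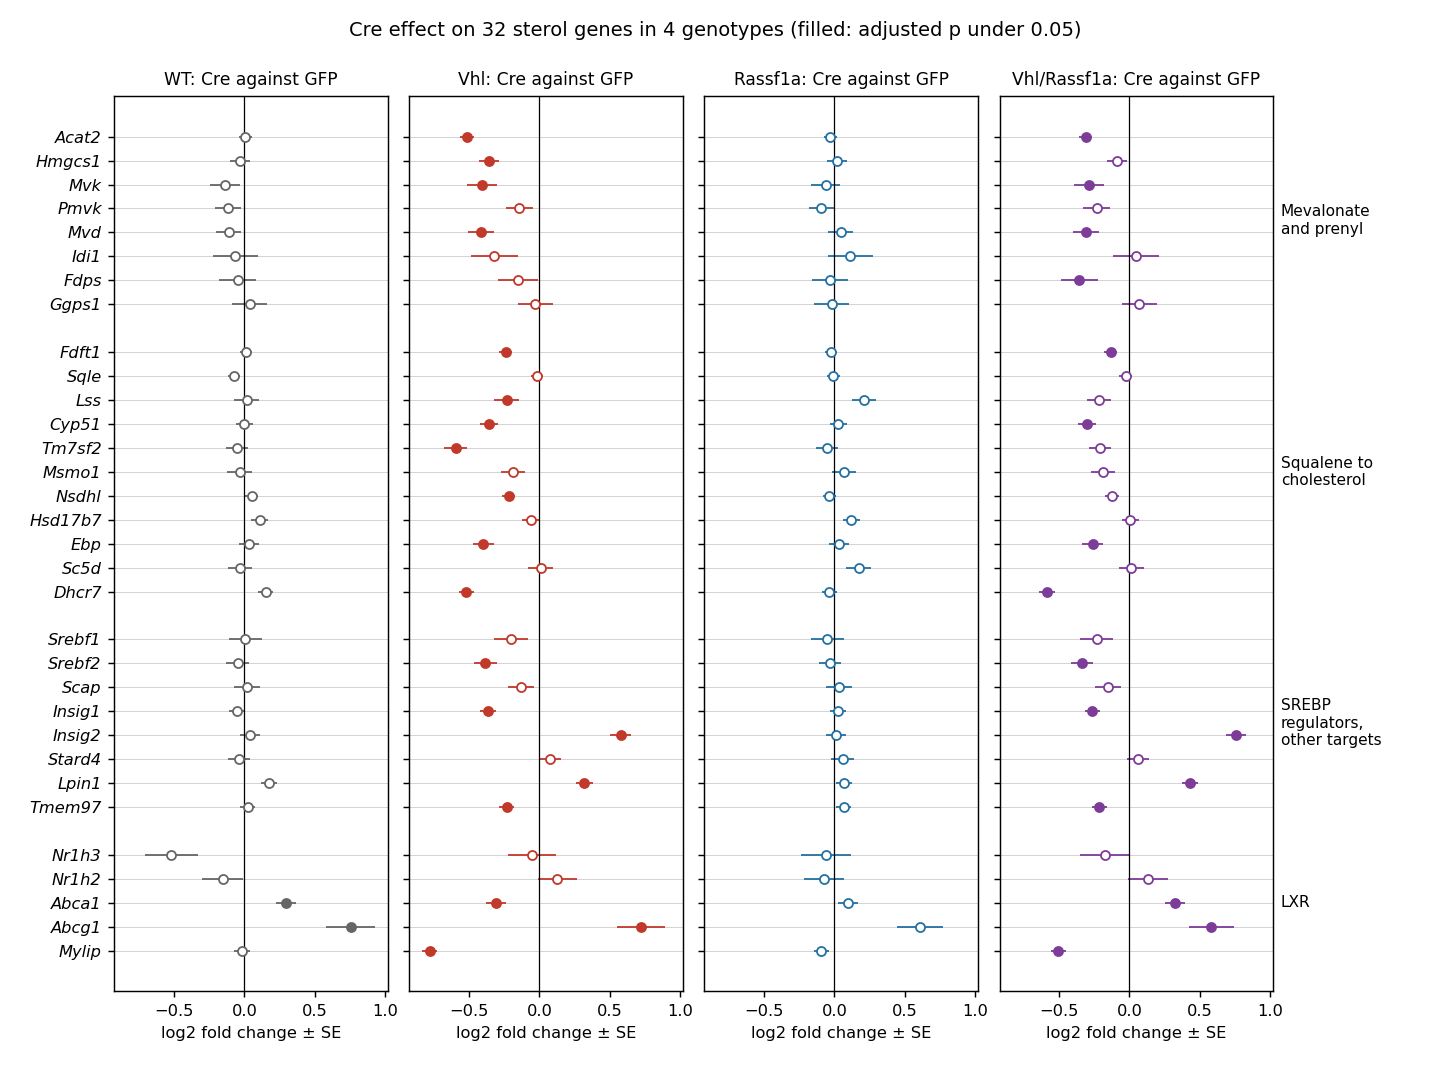
Log2 fold change of Cre against GFP for the 32 genes, grouped by role, in each genotype, with bars of 1 SE and filled symbols where the adjusted p was under 0.05. In WT and Rassf1a cells nearly all points lie near 0, while enzymes lie to the left in Vhl and Vhl/Rassf1a (V/R) cells, down to −0.60 for Tm7sf2 in Vhl, and Insig2 lies to the right at 0.58 and 0.76.

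The change in Vhl cells was then compared with the change that Cre brought in WT cells, by testing the difference of the 2 fold changes. Of the 32 genes, 13 had a lower Cre effect in Vhl than in WT cells and 1 a higher one, while 12.5% and 10.7% of all genes did so (23.2% in either direction). The lower ones were 8 enzymes (Acat2, Hmgcs1, Fdft1, Cyp51, Tm7sf2, Nsdhl, Ebp and Dhcr7), the SREBP genes Srebf2, Insig1 and Tmem97, and the LXR targets Abca1 and Mylip. Dhcr7 differed by −0.67 (SE 0.08, adjusted p = 7.47e-07), Tm7sf2 by −0.54 (SE 0.12, adjusted p = 0.00107) and Acat2 by −0.52 (SE 0.07, adjusted p = 3.47e-06). The differences of Hmgcs1, Srebf2 and Tmem97 were lost without single libraries. For Hmgcs1 these were WT GFP replicate 3 (adjusted p = 0.0757), WT Cre 1 (0.0562) and 3 (0.0769), Vhl GFP 1 (0.0607) and 2 (0.0612), and Vhl Cre 2 (0.0567) and 3 (0.058). Srebf2 lost its call without WT GFP replicate 1 (0.0867) or 2 (0.0637), WT Cre 2 (0.0633) or 3 (0.0695), Vhl GFP 1 (0.0527) or 3 (0.0502), or Vhl Cre 1 (0.0686). Tmem97 lost it without WT GFP replicate 2 (0.0525) or Vhl Cre 1 (0.0556).

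Against the WT Cre effect, that in Vhl/Rassf1a cells was lower in 5 genes and higher in 2, beside 7.40% and 7.41% of all genes. Dhcr7 differed by −0.74 (SE 0.08, adjusted p = 3.88e-07), Mylip by −0.49 (SE 0.08, adjusted p = 9.56e-05), Acat2 by −0.32 (SE 0.07, adjusted p = 0.00186) and Insig2 by 0.72 (SE 0.10, adjusted p = 3.04e-05). Cyp51 (−0.30), Tmem97 (−0.24) and Lpin1 (0.26) had adjusted p of 0.0206, 0.0356 and 0.0403. These 3 calls did not survive leaving out WT GFP replicate 3 for Cyp51 (0.0595) and Lpin1 (0.0964), WT GFP replicate 1 for Tmem97 (0.0527) and Lpin1 (0.0527), or WT GFP replicate 2 for Tmem97 (0.108). They were also lost without WT Cre replicate 1 for Cyp51 (0.0657) and Lpin1 (0.0967), replicate 2 for Tmem97 (0.0856), and replicate 3 for Cyp51 (0.0757) and Tmem97 (0.124). Of the Vhl/Rassf1a libraries, GFP replicate 1 (Cyp51, 0.0684), GFP replicate 3 (Cyp51 0.0997, Tmem97 0.0836, Lpin1 0.0875), Cre replicate 1 (Cyp51 0.0642, Tmem97 0.0799), Cre replicate 2 (Tmem97 0.0864, Lpin1 0.0686) and Cre replicate 3 (Cyp51 0.0704, Lpin1 0.0718) had the same effect. Against Rassf1a cells the Cre effect in Vhl/Rassf1a cells was lower in 7 genes and higher in 2, where 7.10% and 7.95% of all genes were. Those 7 were Dhcr7 (−0.55, adjusted p = 2.04e-05), Lss, Mylip, Cyp51, Insig1, Tmem97 and Acat2, and the higher ones were Insig2 (0.75, adjusted p = 1.76e-05) and Lpin1 (0.36, adjusted p = 0.00393). The difference of Lss (−0.43, adjusted p = 0.0207) was −0.24 without Rassf1a Cre replicate 2 (adjusted p = 0.036), the highest Lss library, and its call was lost without Rassf1a GFP replicate 3 (0.0595). The call of Insig1 (−0.29, adjusted p = 0.0137) without Vhl/Rassf1a GFP replicate 3 (0.0539) or Cre replicate 3 (0.0507).

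The regulators of SREBP did not move as 1 block. Of the 8 genes in this group, 3 fell and 2 rose in Vhl cells, and the same 5 genes did so in Vhl/Rassf1a cells. This is 62.5% called in each, beside 36.1% and 29.7% of all genes. Srebf2, the gene of SREBP2 (chr15:82147181-82205379, GRCm38, plus strand), was at 231.5, 227.4 and 229.9 CPM in Vhl GFP and at 168.9, 176.6 and 182.2 CPM in Vhl Cre. In Vhl/Rassf1a cells it was at 232, 277.7 and 231.9 CPM in GFP and at 200.8, 190.7 and 195.7 CPM in Cre. The ranges were apart in both genotypes, and the highest GFP value came from the library that stands apart. Srebf2 fell by 0.38 (SE 0.08, adjusted p = 0.000466) and by 0.34 (SE 0.08, adjusted p = 0.00214). The microRNA gene Mir33 and the transcript Gm49502 lie within Srebf2 on the same strand.

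Srebf1, whose product acts more on fatty acid genes, was at 120.7, 123.3 and 122 CPM in Vhl GFP and at 99.99, 105 and 113.4 CPM in Vhl Cre. In Vhl/Rassf1a cells it was at 122.2, 165.1 and 121.2 CPM in GFP and at 116.6, 112.1 and 118.8 CPM in Cre. Although the ranges did not overlap, neither −0.20 in Vhl (SE 0.12, adjusted p = 0.201) nor −0.23 in the double genotype (SE 0.12, adjusted p = 0.147) was called. Other settings did call Srebf1 lower. In Vhl cells these were no filter (adjusted p = 0.00799), GC-corrected offsets (0.00807), the groups compared fitted alone (0.00206), both libraries that stand apart left out (0.0241), and the last with GC-corrected offsets (0.00182). The double genotype had a call with no filter (0.00147) and with GC-corrected offsets on all libraries (0.00623) or without those 2 (0.0268). WT libraries alone spanned 101.5 to 132.5 CPM for this gene.

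Insig1 and Insig2 encode related retention proteins of the endoplasmic reticulum, and Insig1 is itself a known SREBP target. They changed in opposite directions. Insig1 (promoter shown above) was at 65.5, 67.5 and 60.3 CPM in Vhl GFP and at 50.8, 49.7 and 49.1 CPM in Vhl Cre, and at 72.9, 70.5 and 78.6 CPM in Vhl/Rassf1a GFP and 63.0, 62.3 and 59.6 CPM in Vhl/Rassf1a Cre. All of these lay below the WT GFP libraries at 103, 103.5 and 99.7 CPM. The falls were 0.37 (SE 0.06, adjusted p = 1.62e-05) and 0.26 (SE 0.06, adjusted p = 0.000899).

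Insig2 was at 37.8, 35.2 and 33.7 CPM in Vhl GFP and at 53.0, 55.8 and 50.5 CPM in Vhl Cre. Its Vhl/Rassf1a libraries were at 36.8, 30.7 and 40.2 CPM in GFP and at 61.8, 59.8 and 60.5 CPM in Cre. The other 18 libraries, which are those of WT, of Rassf1a and the GFP libraries of Vhl and Vhl/Rassf1a cells, all lay between 30.7 and 40.2 CPM. The 6 Cre libraries of Vhl and Vhl/Rassf1a cells thus stood clear of the rest. Insig2 rose by 0.58 (SE 0.07, adjusted p = 1.12e-06) in Vhl and by 0.76 (SE 0.07, adjusted p = 3.39e-08) in Vhl/Rassf1a cells. The letters ACGTG were not in its promoter window, and sequence outside that window was not searched. The part of hypoxia-inducible factors in this rise was not tested.

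Lpin1, a phosphatidate phosphatase of lipid synthesis that is also an SREBP target, rose in both genotypes. It was at 44.4, 39.6 and 40.01 CPM in Vhl GFP and 51.2, 52.6 and 51.0 CPM in Vhl Cre, and at 38.6, 41.0 and 35.5 CPM in Vhl/Rassf1a GFP and 50.8, 51.6 and 52.7 CPM in Vhl/Rassf1a Cre. The Cre libraries were above the GFP libraries throughout, and the rises were 0.32 (SE 0.06, adjusted p = 0.000129) and 0.43 (SE 0.06, adjusted p = 5.37e-06). Cre and GFP were apart in the other genotypes too, without a call: GFP was at 39.01 to 41.14 CPM and Cre at 41.21 to 48.49 CPM in WT cells (0.17, adjusted p = 0.224), and GFP at 40.13 to 41.65 and Cre at 42.2 to 43.76 CPM in Rassf1a cells (0.07, adjusted p = 0.981). With GC-corrected offsets and both libraries that stand apart left out, Lpin1 was called higher in WT cells (0.17, adjusted p = 0.0313). The Cre effect on Lpin1 in Vhl cells differed from that in WT cells by 0.15 (SE 0.08, adjusted p = 0.237), which was not called. Tmem97, a sterol-responsive membrane protein, fell by 0.23 and 0.22 (adjusted p = 0.00154 and 0.00367). Scap was at −0.13 and −0.15 and Stard4, a cholesterol carrier, at 0.07 and 0.06, none of them called. With GC-corrected offsets Scap was called lower in both genotypes (adjusted p = 0.0441 and 0.0468).

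**Figure D3:**
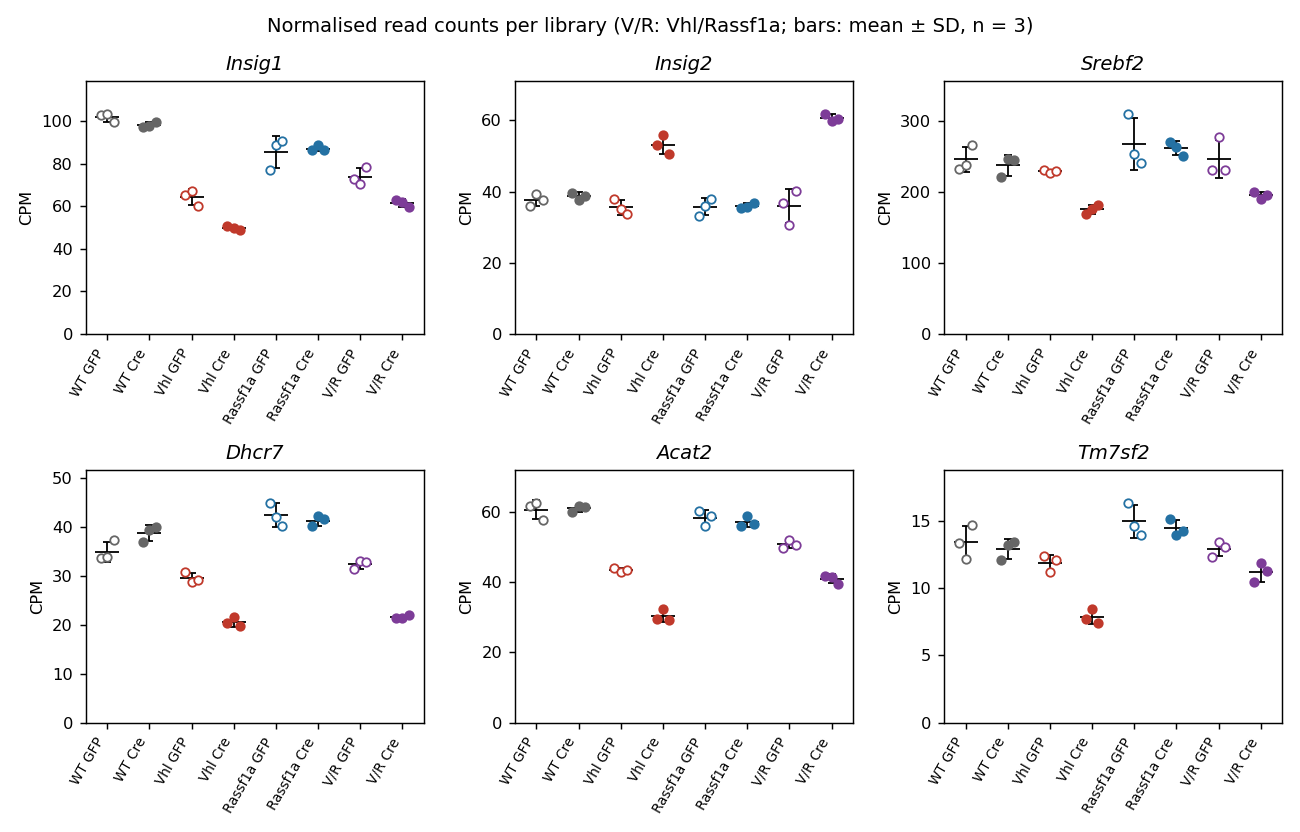
CPM of Insig1, Insig2 and Srebf2 (upper row) and of the enzymes Dhcr7, Acat2 and Tm7sf2 (lower row) in every library, 1 panel per gene, with open symbols for GFP and filled symbols for Cre. Insig2 is near 50 to 62 CPM in the Cre libraries of Vhl and Vhl/Rassf1a cells and between 30.7 and 40.2 CPM in all other libraries, while Insig1 and Srebf2 are lower in those same Cre libraries than in their GFP controls.

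Of the 5 LXR genes, Mylip and Abca1 fell and Abcg1 rose in Vhl cells. Mylip fell and the 2 exporters Abca1 and Abcg1 rose in Vhl/Rassf1a cells, and the 2 exporters also rose in WT cells. Over all genes, 36.1%, 29.7% and 1.26% were called in Vhl, Vhl/Rassf1a and WT cells. Mylip, a ubiquitin ligase that limits lipoprotein uptake (chr13:45389742-45412022, GRCm38, plus strand), had the largest fall of the 32 genes in Vhl cells. It was at 24.2, 22.7 and 24.4 CPM in Vhl GFP and at 13.3, 14.3 and 13.8 CPM in Vhl Cre. The Vhl/Rassf1a values were 20.5, 19.9 and 19.5 CPM in GFP and 14.2, 13.7 and 14.3 CPM in Cre. Both Cre groups lay at 13.3 to 14.3 CPM, below all other libraries, whose lowest value was 16.8 CPM in WT Cre. The falls were 0.78 (SE 0.05, adjusted p = 1.08e-10) and 0.51 (SE 0.05, adjusted p = 1.98e-07).

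Abca1, the transporter that loads cholesterol onto apolipoproteins (chr4:53030787-53159895, GRCm38, minus strand), moved in opposite directions. In Vhl cells it was at 71.8, 63.3 and 62.1 CPM in GFP and at 55.2, 52.7 and 51.4 CPM in Cre, a fall of 0.31 (SE 0.07, adjusted p = 0.00135). In Vhl/Rassf1a cells it was at 39.9, 39.4 and 37.4 CPM in GFP and at 46.5, 47.2 and 52.3 CPM in Cre, a rise of 0.32 (SE 0.07, adjusted p = 0.00123). Vhl GFP held the highest values of the 8 groups, and the Cre libraries of all 4 genotypes lay within 45.6 to 56.2 CPM. In WT cells Abca1 also rose with Cre, by 0.29, a call that rested on single libraries. The Cre effect in Vhl cells differed from that in WT cells by −0.60 (adjusted p = 9.12e-05). For Vhl/Rassf1a cells the difference from WT cells was not called.

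Abcg1, a second cholesterol exporter, was scarce and rose with Cre in 3 genotypes. It was at 2.27, 1.89 and 1.69 CPM in Vhl GFP and 3.47, 2.97 and 3.17 CPM in Vhl Cre. In Vhl/Rassf1a cells the GFP libraries were at 2.10, 2.61 and 2.66 CPM and the Cre libraries at 3.70, 3.02 and 4.29 CPM. The rises were 0.72 (SE 0.17, adjusted p = 0.00171) and 0.58 (SE 0.16, adjusted p = 0.00833), without overlap, and the second was lost without Vhl/Rassf1a Cre replicate 3 (adjusted p = 0.0588). The Cre effect on Abcg1 in these genotypes differed from that in WT cells by −0.03 (SE 0.24, adjusted p = 0.952) and −0.17 (SE 0.24, adjusted p = 0.709).

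The receptor genes themselves were not called. Nr1h3 (LXR alpha) was at 3.31, 3.13 and 3.07 CPM in Vhl GFP and 2.69, 3.30 and 3.17 CPM in Vhl Cre, and at 2.33, 3.36 and 2.33 CPM in Vhl/Rassf1a GFP and 2.66, 2.07 and 2.37 CPM in Vhl/Rassf1a Cre. Groups overlapped in both genotypes, and the changes were −0.05 (SE 0.17) and −0.18 (SE 0.17). Nr1h3 shares 6873 bases with Gm13783 on its own strand. Nr1h2 (LXR beta) was more abundant, at 41.4 to 69.1 CPM over all libraries, with changes of 0.13 (SE 0.14) in both genotypes. Without Vhl/Rassf1a GFP replicate 2, which stands apart, Nr1h2 rose by 0.34 in Vhl/Rassf1a cells (adjusted p = 0.0467), and with GC-corrected offsets it was called higher in Vhl (0.026) and Vhl/Rassf1a cells (0.0128).

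**Figure D4:**
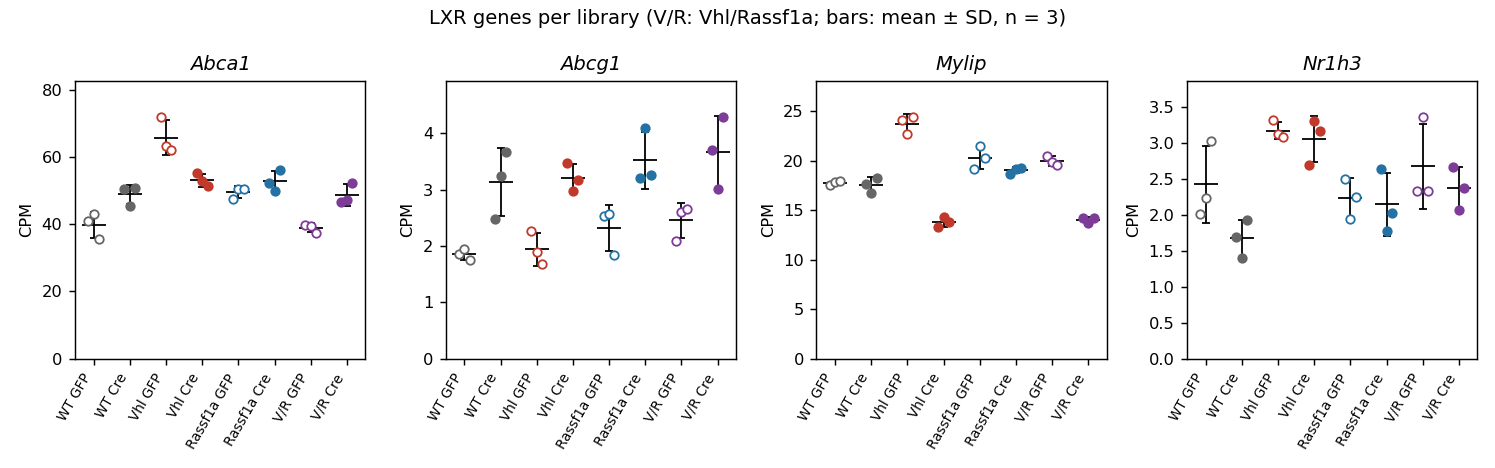
CPM of Abca1, Abcg1, Mylip and Nr1h3 in every library, 1 panel per gene, with open symbols for GFP and filled symbols for Cre. Mylip is at 13.3 to 14.3 CPM in the Cre libraries of Vhl and Vhl/Rassf1a cells, and Abca1 is highest in Vhl GFP, at 62.1 to 71.8 CPM.

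Vhl and Vhl/Rassf1a cells share no library, so their Cre effects could be set side by side. Of 16 genes that fell in Vhl cells and 12 that fell in Vhl/Rassf1a cells, 11 were the same, which is 68.8% of the former and 91.7% of the latter. Over all genes the shares were 54.5% and 69%. All 3 genes that rose in Vhl cells (Insig2, Lpin1 and Abcg1) were among the 4 that rose in Vhl/Rassf1a cells. The difference between these Cre effects was called for 3 of the 32 genes, all higher in Vhl/Rassf1a, where 3.44% of all genes were higher and 2.65% lower (6.09% in all). Abca1 differed by 0.63 (SE 0.10, adjusted p = 0.000343) and was called under every alternative run except a test against a minimum log2 change of 0.5. Tm7sf2 differed by 0.38 (SE 0.12, adjusted p = 0.049) and Mylip by 0.28 (SE 0.08, adjusted p = 0.0332). Both were lost without Vhl GFP replicate 1 (adjusted p = 0.111 and 0.0989, for Tm7sf2 and Mylip in this order throughout) or 3 (0.0824 and 0.075), Vhl Cre replicate 1 (0.0934 and 0.105) or 3 (0.107 and 0.0522), Vhl/Rassf1a GFP replicate 3 (0.0619 and 0.0799) or Vhl/Rassf1a Cre replicate 3 (0.0925 and 0.0987). Tm7sf2 was also lost without Vhl/Rassf1a GFP replicate 1 (0.0977) or Cre replicate 2 (0.122), and Mylip without Vhl/Rassf1a GFP replicate 2 (0.0645) or Cre replicate 1 (0.0862). For Insig2 the difference was 0.18 (SE 0.10, adjusted p = 0.406) and for Dhcr7 −0.07 (SE 0.08, adjusted p = 0.747).

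**Figure D5:**
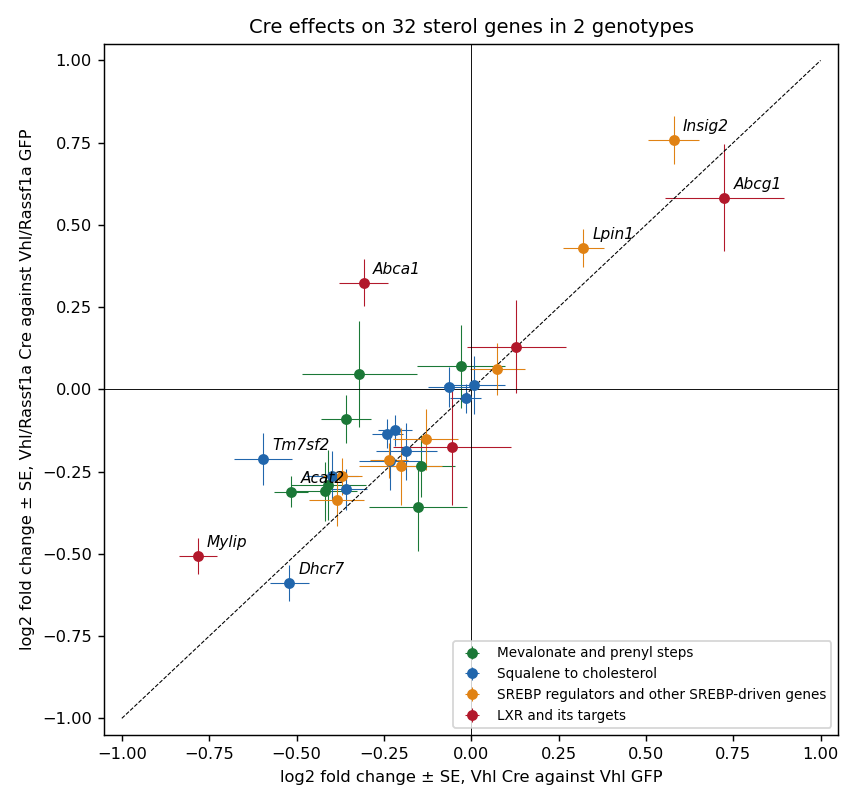
Log2 fold change of Cre against GFP in Vhl cells (horizontal) and in Vhl/Rassf1a cells (vertical) for the 32 genes, with bars of 1 SE and a diagonal of equal change. Most genes lie near the diagonal, with Insig2 at 0.58 and 0.76 and Mylip at −0.78 and −0.51, while Abca1 lies off it at −0.31 and 0.32.

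In WT cells Cre raised 2 of the 32 genes and lowered none, beside 0.833% of all genes raised and 0.428% lowered (1.26% in all). Abcg1 was at 1.87, 1.94 and 1.75 CPM in WT GFP and 2.48, 3.25 and 3.68 CPM in WT Cre, a rise of 0.76 (SE 0.17, adjusted p = 0.0279). Abca1 was at 40.8, 43.0 and 35.5 CPM in WT GFP and 50.3, 45.6 and 50.7 CPM in WT Cre, a rise of 0.29 (SE 0.07, adjusted p = 0.0418). Neither pair of ranges overlapped. Both calls rested on single libraries: Abcg1 lost its call without WT GFP replicate 1 (adjusted p = 0.126), 2 (0.067) or 3 (0.141) or WT Cre replicate 2 (0.105) or 3 (0.222), and Abca1 without WT GFP replicate 1 (0.115) or 3 (0.309) or WT Cre replicate 1 (0.188) or 3 (0.238). Nr1h3 was at 2.01, 2.24 and 3.03 CPM in WT GFP and 1.69, 1.41 and 1.92 CPM in WT Cre, a change of −0.52 that was not called (SE 0.19, adjusted p = 0.298).

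In Rassf1a cells edgeR called none of the 32 genes and DESeq2 called 0, beside 0.392% of all genes called. At an unadjusted p under 0.05 there were 2, Abcg1 (0.61, SE 0.16, edgeR adjusted p = 0.167) and Lss (0.21, SE 0.09, edgeR adjusted p = 0.623). Abcg1 was at 2.53, 2.57 and 1.85 CPM in Rassf1a GFP and 3.21, 4.11 and 3.26 CPM in Rassf1a Cre, which do not overlap, as in the other 3 genotypes. It was called with no filter (adjusted p = 0.024) and with GC-corrected offsets (0.0459). Lss had 1 high value, 121.4 CPM in Rassf1a Cre replicate 2, beside 84.7 and 86.8 CPM in its fellow libraries. The Cre effect in Rassf1a cells differed from that in WT cells for none of the 32 genes by edgeR or DESeq2 and for 1, Dhcr7, at an unadjusted p under 0.05, where 0.00603% of all genes were called. Both Insig genes overlapped between Cre and GFP in these cells, with Insig2 at 33.2, 36.0 and 38.0 CPM in GFP and 35.4, 35.8 and 36.9 CPM in Cre, and Insig1 at 77.0, 89.1 and 90.9 CPM in GFP and 86.4, 88.9 and 86.6 CPM in Cre.

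The GFP libraries of the genotypes also differed in this pathway. Vhl GFP had 17 of the 32 genes lower than WT GFP and 2 higher, beside 14.9% and 17.2% of all genes, and 15 of the 17 were enzymes. Pmvk, the second kinase of the mevalonate route, was lower, at −0.77 (SE 0.10, adjusted p = 1.22e-06), Idi1 at −0.73 (SE 0.16, adjusted p = 0.00116), Insig1 at −0.66 (SE 0.06, adjusted p = 4.22e-09) and Cyp51 at −0.63 (SE 0.06, adjusted p = 5.27e-08). Abca1 was higher by 0.72 (SE 0.07, adjusted p = 5.13e-08) and Mylip by 0.42 (SE 0.05, adjusted p = 2.27e-06). Vhl GFP is also the control of the Cre comparison in Vhl cells, so the 2 sets of values share 3 libraries and are given only side by side: Abca1 and Mylip were +0.72 and +0.42 here and −0.31 and −0.78 there. Pmvk, Idi1, Fdps, Sqle, Msmo1, Hsd17b7 and Sc5d were lower here and not called there. The calls of 3 genes rested on single libraries: Mvk without WT GFP replicate 3 (adjusted p = 0.0884) or Vhl GFP 3 (0.0598), Sc5d without WT GFP 2 (0.0609) or Vhl GFP 3 (0.0757), and Sqle without WT GFP 2 (0.0581) or 3 (0.0546) or Vhl GFP 1 (0.0692) or 3 (0.0778).

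In Vhl/Rassf1a GFP, 8 genes were lower than in WT GFP and 2 higher, beside 4.68% and 6.86% of all genes. Hsd17b7 was lower, at −0.61 (SE 0.06, adjusted p = 1.12e-07), Insig1 at −0.46 (SE 0.06, adjusted p = 2.3e-06) and Cyp51 at −0.43 (SE 0.06, adjusted p = 2.69e-05), and these 3 calls held under every alternative run except the test against a minimum change. Idi1, Mvd, Acat2, Nsdhl and Fdft1 were lower and Stard4 and Mylip higher with calls that depended on the alternative. Those of Acat2 and Idi1 were lost only when the compared groups were fitted alone (adjusted p = 0.0513 and 0.147) or tested against the minimum change. The value of Idi1 went from −0.69 to −0.44 (adjusted p = 0.0178) without Vhl/Rassf1a GFP replicate 2. Mvd also lost its call without WT GFP replicate 1 (0.0955) or 3 (0.166) or Vhl/Rassf1a GFP replicate 1 (0.126) or 3 (0.081), and Fdft1 without WT GFP replicate 1 (0.12) or 2 (0.0644) or Vhl/Rassf1a GFP replicate 1 (0.0741). Nsdhl lost it without WT GFP replicate 1 (0.0882) or Vhl/Rassf1a GFP replicate 2 (0.0897), Stard4 without Vhl/Rassf1a GFP replicate 3 (0.0667), and Mylip without any 1 of the 6 libraries (0.0802 to 0.177). With both libraries that stand apart left out, 10 genes were lower and 1 higher, and 9 of the 10 calls remained. Rassf1a GFP had 3 lower genes (Idi1, Hsd17b7 and Insig1) and 3 higher ones (Dhcr7, Abca1 and Mylip), beside 6.68% and 9.39% of all genes. Hsd17b7, at −0.31 (SE 0.06, adjusted p = 0.000706), was the only one of these 6 that no alternative but the minimum change removed. Idi1 lost its call without WT GFP replicate 1 (0.123), 2 (0.1) or 3 (0.093) or Rassf1a GFP replicate 1 (0.231) or 2 (0.0574), its value going from −0.47 to −0.31 without Rassf1a GFP replicate 1, which stands apart. Mylip lost it without WT GFP replicate 1 (0.0609) or 2 (0.0783) or Rassf1a GFP replicate 2 (0.133). With 1 genotype per set of libraries, a difference between genotypes and a difference between cultures cannot be told apart.

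Neighbouring pathways were read from lists of genes that hold none of the 32. Of 11 tested genes of fatty acid synthesis, which SREBP1 drives, 8 fell and 1 rose in Vhl cells and 8 fell and 1 rose in Vhl/Rassf1a cells. This is 81.8% called in each, beside 36.1% and 29.7% of all genes. The medians of the list were −0.42 and −0.31, against −0.01 and 3e-04 over all genes. Scd1, the stearoyl-CoA desaturase, fell from 242.9 ± 4.96 to 136.7 ± 2.91 CPM in Vhl cells (SD, n = 3), by 0.83 on the log2 scale (adjusted p = 1.76e-12), and by 0.61 in Vhl/Rassf1a cells (adjusted p = 4.63e-10). The desaturases Fads1 and Fads2 fell by 0.67 and 0.81 in Vhl cells, and Acaca, the acetyl-CoA carboxylase of the first step, fell by 0.53. The gene that rose was Me1, malic enzyme, at 0.38 and 0.30.

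Genes that carry out SREBP cleavage or sterol-driven degradation were mostly not called: 2 of 9 rose and none fell in Vhl cells (22.2% called, beside 36.1% of all genes), and 1 rose and 2 fell in Vhl/Rassf1a cells (33.3%, beside 29.7%). Erlin2, of the degradation machinery of the endoplasmic reticulum, rose by 0.30 in Vhl cells (adjusted p = 5.63e-06) and Ube2g2, a ubiquitin-conjugating enzyme, by 0.18 (adjusted p = 0.0309). Mbtps1 and Mbtps2, the proteases that release SREBP, were at −0.07 and −0.18 in Vhl cells and were not called in either genotype. Of 14 genes that use isoprenoids, 4 rose and none fell in Vhl cells, Rabggtb, Icmt, Coq2 and Fnta, by 0.13 to 0.28, and 2 rose in Vhl/Rassf1a cells. These shares of 28.6% and 14.3% lay below those of all genes, 36.1% and 29.7%.

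In sterol transport and esterification 6 of 20 genes were higher and 4 lower in Vhl cells (50% called, beside 36.1% of all genes), and 4 were higher and 4 lower in Vhl/Rassf1a cells (40%, beside 29.7%). Vldlr, a lipoprotein receptor that is a known hypoxia target, rose from 29.8 ± 1.68 to 176 ± 7.62 CPM in Vhl cells (SD, n = 3), by 2.56 (adjusted p = 6.66e-18), and by 2.30 in Vhl/Rassf1a cells. Soat1, which esterifies cholesterol for storage, rose by 0.67 and 0.72, and Gramd1b, which moves sterol from the plasma membrane inwards, by 0.67 and 0.68. Lrp8, a further lipoprotein receptor, fell by 0.60 and 0.84. Among 10 tested genes of other LXR targets and cofactors, 4 fell and 1 rose in Vhl cells (50% called) and 4 fell in Vhl/Rassf1a cells (40%). Pltp fell by 0.82 and 0.33 and Lpcat3 by 0.40 and 0.27, followed by Rxra and Ncor1, and Abca5 rose by 0.51 in Vhl cells (adjusted p = 0.018). Of 7 oxysterol and bile acid enzymes, 1 rose and 3 fell in Vhl cells (57.1% called) and 1 rose and 2 fell in Vhl/Rassf1a cells (42.9%). Ch25h, which makes an oxysterol that restrains SREBP, rose by 0.87 and 0.65. Cyp7b1, which breaks such oxysterols down, fell by 1.58 and 1.02, and Cyp39a1 by 0.87 and 0.82, while Hsd3b7 fell by 0.40 in Vhl cells. The list as a whole was scarce: its 9 genes together summed to 31.1 to 36.65 CPM in Vhl GFP and 28.28 to 28.48 CPM in Vhl Cre. Oxysterols themselves were not measured.

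Other gene groups moved with the same libraries. For Cre against GFP, 36.1% of all genes were called in Vhl cells and 29.7% in Vhl/Rassf1a cells. All 16 hypoxia-responsive genes rose in Vhl and in Vhl/Rassf1a cells. All 14 cell division genes fell in Vhl cells, and their summed level was 879.4 to 891.5 CPM in the GFP libraries but 466.3 to 517.2 CPM in the Cre libraries. In Vhl/Rassf1a cells 13 of 14 fell, from 1141 to 1224 CPM in GFP to 910.3 to 940.1 in Cre, and WT GFP was at 1156 to 1268. Against WT GFP, 14 of 14 cell division genes were lower in Vhl GFP and 1 of 14 in Vhl/Rassf1a GFP. Of all genes, 14.9% and 4.68% were lower there. All 15 interferon-stimulated genes fell with Cre in both genotypes. Against WT GFP 12 of these 15 were higher in Vhl GFP, 9 in Rassf1a GFP and 7 in Vhl/Rassf1a GFP. Of all genes, 17.2%, 9.39% and 6.86% were higher in these comparisons. Of 10 fibroblast markers 6 fell in Vhl cells (60% called), and 1 fell and 1 rose in Vhl/Rassf1a cells (20%). Of 5 tested fat cell markers 2 and 5 fell (40% and 100%). Epithelial markers summed to 38.4 to 39.4 CPM with GFP and 127 to 147.2 CPM with Cre in Vhl cells, and to 75.64 to 97.58 and 194.1 to 201.5 CPM in Vhl/Rassf1a cells, beside 76.76 to 94.82 CPM in WT GFP. Of 6 tested, 5 and 3 rose, and at least 3 of 7, Epcam among them, were below 1 CPM in each group. Endothelial markers summed to 6.213 to 7.47 CPM with GFP and 13.36 to 14.18 with Cre in Vhl cells and to 12.23 to 13.09 and 13.46 to 14.93 in Vhl/Rassf1a cells, and 4 and 2 of 6 rose. Macrophage markers were at 5.27 to 8.62 CPM over all libraries, with 5 of 8 below 1 CPM. The part of these groups in the sterol gene results was not tested.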

How the data were processed

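Raw read counts per Ensembl gene ID were used as the authors deposited them. Per the labels' protocols the kit was TruSeq Stranded. Trimmomatic 0.38, STAR 2.5.2b and GRCm38 are named in the submitters' processing notes. How reads were counted (tool, strand, annotation) is not given in the sources used here, and overlapping or antisense genes may therefore share reads. Symbols and coordinates came from GENCODE M21, which named 45143 of 45706 IDs.

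Genes were kept by filterByExpr of edgeR 4.0.16 (minimum count 10, minimum total 15). A quasi-likelihood model (glmQLFit, glmQLFTest) with TMM scaling and 8 group means took in all 24 libraries (R 4.3.3) and had 16 residual degrees of freedom. The common biological coefficient of variation was 7.73%. It gave 12 comparisons: Cre against GFP in 4 genotypes, 5 differences between Cre effects and 3 comparisons between GFP groups. Two-sided p-values were Benjamini-Hochberg adjusted over all 16573 genes. The SE is the fold change over the square root of F, and CPM used TMM library sizes. The script was tested on simulated counts for Vhl Cre against Vhl GFP. Of 100 genes given a log2 change of 0.3 in either direction, 41% were called, and of 100 given 0.6, 93% were. Of the calls made, 1.47% were false. Most changes of 0.3 were thus missed in the simulation. No other gene was given a change there, whereas 36.1% of all genes were called in the data. The adjustment of p is stricter where fewer genes change, so these shares do not measure recovery in the data.

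The genes, the lists and the rule for the genes given in every library (the largest changes, the regulators, and genes called in WT, in Rassf1a or between Vhl and Vhl/Rassf1a cells) were chosen with earlier results of these data known. Of each further list, up to 4 genes with the smallest adjusted p in Vhl cells were named, and Hmgcs1, Lss in Rassf1a cells, Me1, Mbtps1 and Mbtps2 were added after their values were seen. Alternatives were DESeq2 1.42.0 size factors and its Wald test, no filter, a minimum log2 change of 0.5, fits of fewer groups, a replicate block, GC-corrected offsets, and libraries left out.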

Additional observations from a re-analysis of the deposited data

Results flagged for a closer look

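For 3 of the 32 genes the effect of Cre differed between Vhl and Vhl/Rassf1a cells by the edgeR test of the difference itself. Abca1 fell in Vhl cells and rose in Vhl/Rassf1a cells, a difference of 0.63 on the log2 scale. It also rose in WT cells, by 0.29. Its Cre effect was called different from that in WT cells for Vhl cells but not for Vhl/Rassf1a cells. Tm7sf2 was lower with Cre by −0.60 in Vhl and by −0.21 in Vhl/Rassf1a cells, a difference of 0.38. Mylip fell in both, with a difference of 0.28. The controls of Abca1 differed between these genotypes, with 62.1 to 71.8 CPM in Vhl GFP and 37.4 to 39.9 CPM in Vhl/Rassf1a GFP, and so did those of Mylip, with 22.7 to 24.4 and 19.5 to 20.5 CPM. The part of the controls in these differences was not tested.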

How the results depend on the processing

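No direction was reversed for any called gene under any alternative run. Of the calls, 18 of 19 in Vhl and 10 of 16 in Vhl/Rassf1a Cre against GFP were kept under every alternative other than the minimum log2 change of 0.5, as were 16 of 19 in Vhl GFP against WT GFP, 9 of 14 differences between Vhl and WT, 1 of 6 calls in Rassf1a GFP and 0 of 2 in WT cells. Against that minimum change, glmTreat called 1 gene in Vhl (Mylip) and 1 in Vhl/Rassf1a cells (Insig2), 1 in each difference from WT (Vhl and Vhl/Rassf1a), 3 in Vhl GFP, and 0 in WT, in both GFP comparisons of Rassf1a and Vhl/Rassf1a, and in the differences of Vhl/Rassf1a from Vhl and from Rassf1a, so most changes here were smaller than or near that size.

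The deviations of same-numbered GFP and Cre libraries correlated at −0.448 to 0.313, with 3 of 12 pairs over 0.1 (9592 genes). Deviations also followed the GC content of genes, with r from −0.76 to 0.825 over the libraries. These correlations therefore cannot show whether the replicate numbers pair. With the replicate number as a block, 1 gene was called in WT cells in place of 2, and 19 in Vhl and 14 in Vhl/Rassf1a cells.

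With GC-corrected offsets the counts were 2 in Rassf1a cells, 15 for Vhl/Rassf1a minus WT, 5 for Vhl/Rassf1a minus Vhl, 15 for Vhl/Rassf1a minus Rassf1a, 11 in Rassf1a GFP and 16 in Vhl/Rassf1a GFP. Without both libraries that stand apart they were 11 for Vhl/Rassf1a minus WT and 5 for Vhl/Rassf1a minus Vhl. Both steps together, an alternative chosen after seeing the data, gave 4 in WT cells, 22 for Vhl minus WT, 14 for Vhl/Rassf1a minus WT, 6 for Vhl/Rassf1a minus Vhl, 16 for Vhl/Rassf1a minus Rassf1a and 10 in Rassf1a GFP. No filter gave 1 in Rassf1a cells and 1 for Vhl/Rassf1a minus Vhl, where the count was 3. Fits of only the groups compared gave 1 in WT cells, 1 for Vhl/Rassf1a minus Vhl, 1 in Rassf1a GFP and 3 in Vhl/Rassf1a GFP. The cause was not tested.

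Leaving out each library in turn gave 0 to 1 calls in WT cells, 18 to 18 in Vhl, 12 to 17 in Vhl/Rassf1a, 4 to 11 for Vhl/Rassf1a minus WT, 1 to 4 for Vhl/Rassf1a minus Vhl and 6 to 10 in Vhl/Rassf1a GFP. The 4 came without Vhl/Rassf1a GFP replicate 3, the 11 without replicate 2, and the 6 without WT GFP replicate 1. Abcg1, Nr1h3 and Fdps were the genes with fewest counts, below 10 CPM in every library.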
